A study of Mus musculus with 13 samples.

Results

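The spindle assembly checkpoint genes Mad2l1, Mad1l1, Bub1, Bub1b, Bub3, Ttk, Zw10, Zwilch and Kntc1 were followed in single mouse oocytes before and after meiosis I. The 9 genes were taken by symbol from 18939 genes with deposited counts and 49686 genes with FPKM values. All 9 had counts in every library and passed the filter on low counts in every comparison. RNA-seq was done on 13 oocytes, 1 library each: 3 SN GV, 3 NSN GV, 4 SN-MII and 3 NSN-MII oocytes. SN (surrounded nucleolus) and NSN (non-surrounded nucleolus) are 2 chromatin states of the germinal vesicle (GV), the nucleus of an oocyte arrested in prophase of meiosis I, and MII oocytes are arrested in metaphase of meiosis II. All oocytes came from juvenile C57BL/6 females primed with PMSG (a gonadotropin), and carried no genetic modification named in the labels. The injected FBL-GFP mRNA (fibrillarin, a nucleolar protein) and H2B-mCherry mRNA, and 6 h in Cilostamide, a phosphodiesterase inhibitor that keeps oocytes at the GV stage, were common to all groups, so no group stands for an oocyte without them. SN and NSN were assigned from the nucleolar pattern of FBL-GFP. MII oocytes were matured in vitro after release from the inhibitor, so NSN-MII oocytes are those of the NSN oocytes that reached MII. Which animal or culture gave an oocyte is not stated in the labels, and the p-values measure only the spread between these oocytes.

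The checkpoint delays anaphase until every kinetochore is attached to spindle microtubules. At unattached kinetochores the kinase TTK (MPS1) phosphorylates the scaffold that recruits BUB3 with BUB1 and BUBR1 (the product of Bub1b), and the RZZ complex of ROD (Kntc1), ZW10 and ZWILCH helps to hold MAD1 (Mad1l1) and MAD2 (Mad2l1) there. MAD2, BUBR1 and BUB3 then form, with CDC20, the mitotic checkpoint complex, which inhibits the anaphase-promoting complex. Maturing oocytes do not transcribe, many of their stored mRNAs are degraded on the way to MII, and others are translated only after their poly(A) tail is lengthened at a cytoplasmic polyadenylation element (CPE) near the AAUAAA hexamer at the 3' end.

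The ends of these mRNAs are shown first, because they are where the GV to MII comparison below can be set beside sequence. The last 100 bases of the transcript with the longest 3' UTR in GENCODE M21 were searched on the transcript strand for the CPE, spelled TTTTAT or TTTTAAT, and for the hexamer AATAAA or ATTAAA. Either CPE spelling can share bases with a hexamer or abut it. Windows of 30 bases that end at the last hexamer are given 5' to 3' on the transcript strand, in lower case with CPE and hexamer in capitals. They lie in the 3' UTR, in coordinates of GRCm38 (mm10).
Bub1b, chr2:118641547-118641576, plus strand: ctctcctttcactgtgtaTTTTATAATAAA
Mad1l1, chr5:140008715-140008744, minus strand: gtgtccacagtctcagactaatgaAATAAA
Bub1, chr2:127801139-127801168, minus strand: tactatttatgtatgtttaaaaaaAATAAA
Bub3, chr7:131571125-131571154, plus strand: aactgttatatttttctgttgtctAATAAA
Ttk, chr9:83872337-83872366, plus strand: gctggaatgttgaagagctctgtaAATAAA
Kntc1, chr5:123821544-123821573, plus strand: cttgaatgtctcatatgatgaatcAATAAA

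Bub1b alone of the 9 genes held a CPE in this stretch, in 2 copies, of which 1 directly precedes the hexamer. The longest annotated transcripts of Mad2l1, Zw10 and Zwilch had neither hexamer in their last 100 bases. A shorter annotated Mad2l1 transcript ends near the following window, chosen after the longest ends had been seen, in which the hexamer comes before the CPE.
Mad2l1, chr6:66540962-66540991, plus strand: tgtAATAAAgaactcttaTTTTAATgtttt

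The genes lie on 5 chromosomes in GRCm38, and all are protein coding: Mad2l1 (chr6:66535390-66547220), Mad1l1 (chr5:140008689-140321552), Bub1 (chr2:127801122-127831865), Bub1b (chr2:118598211-118641591), Bub3 (chr7:131560222-131571895), Ttk (chr9:83834689-83872389), Zw10 (chr9:49055613-49078775), Zwilch (chr9:64137144-64173104) and Kntc1 (chr5:123749716-123821593). Exons of Zwilch share 254 bases with the opposite-strand gene Lctl, and those of Mad1l1 share 37 bases with the antisense gene Gm16121. No strand-specific step is stated, so reads on those bases cannot be assigned. Estimated counts of Zwilch were not whole numbers in 6 libraries, where reads were shared out between genes, and those of Zw10 in 1. For Zwilch these were all the GV libraries, and its counts were whole in every MII library. The part of this sharing in the GV to MII change of Zwilch was not tested.

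Library totals ran from 7140416 to 8846287 counts. CPM values are counts scaled by library size and TMM factors over all libraries, and compare 1 gene between libraries. FPKM is per length and compares genes within a library. Libraries SN-MII 4 and NSN-MII 3 stood apart, with 11830 and 11593 genes detected against at least 12251 in the other MII oocytes. Some of the values below are also given without these libraries. All 12 oocyte markers were detected in every library, with a summed level of 21567 to 23821 CPM in SN GV, 23383 to 29147 CPM in NSN GV, 21312 to 24703 CPM in SN-MII and 18123 to 19110.5 CPM in NSN-MII oocytes. This sum was lower in all NSN-MII than in all SN-MII oocytes, as was Bub3, and its part in the Bub3 difference was not tested. Of 15 cumulus and granulosa cell markers 8 to 10 were detected in a GV library and 4 to 9 in an MII library, and Foxl2 and Ptx3 were at 0 in all. The summed level was 61.5 to 93.6 CPM at GV and 99.1 to 189 CPM at MII. Cyp19a1 alone had 50.5 ± 11.6 CPM at GV and 103 ± 27.9 CPM at MII, where it reached 158 CPM. The markers did not move together. Of the 6 tested from GV to MII as below, 2 were called higher (Cyp19a1 and Kitl), 1 lower (Cyp11a1) and 3 were not called. Fshr, not tested, was at 0 in all MII libraries. The part of these markers in the results was not tested. The reverse transcription primes on poly(A) tails, so a longer tail and more molecules cannot be told apart here, nor can a smaller share of the library and fewer molecules per oocyte.

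From GV to MII the 9 genes split. Mad2l1 and Bub1b rose, Mad1l1, Bub1, Bub3, Ttk, Zw10 and Zwilch fell, and Kntc1 did not pass the test. Called changes ran from 6.31-fold lower for Zwilch to 2.27-fold higher for Mad2l1. The quasi-likelihood test of edgeR, adjusted by the Benjamini-Hochberg method over all genes, called 8 of the 9 genes at an adjusted p under 0.05, against 68.6% of the 11375 genes tested. Of these, 2 were higher, against 31.7% of all genes, and 6 were lower, against 36.9%. The median log2 fold change was -1.36 over the 9 genes and -0.10 over all genes tested. The levels of 7 of the 9 did not overlap between GV and MII, against 47.4% of all genes. Bub3 and Kntc1 were the 2 that overlapped.

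**Figure D1:**
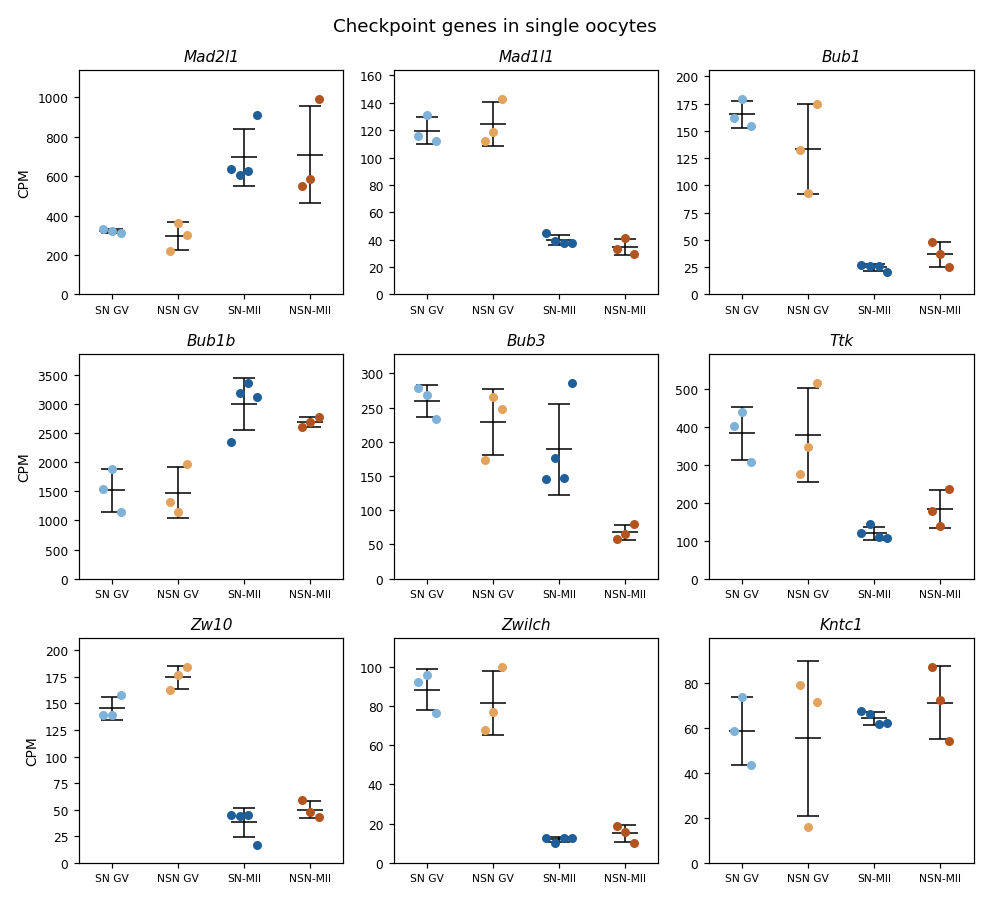
Level of each checkpoint gene in CPM (linear axis from 0) in every oocyte of the 4 groups, with points for single oocytes in order of replicate number and bars for the mean and SD. Mad2l1 and Bub1b stand higher in MII than in GV oocytes, 6 genes stand lower, and in Bub3 all 3 NSN-MII oocytes lie below the 4 SN-MII oocytes.

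Of the kinetochore kinases, Ttk measured 402, 439 and 306 CPM in SN GV oocytes and 274, 347 and 515 CPM in NSN GV oocytes. At MII it measured 119.7, 143, 109.8 and 106 CPM in SN-MII and 177, 138 and 235 CPM in NSN-MII oocytes. Every MII oocyte lay below every GV oocyte. The log2 fold change was -1.36 (SE 0.18, adjusted p = 3.49e-06, edgeR). Bub1, the other kinase of the group, measured 162, 179 and 155 CPM in SN GV and 132, 93.0 and 175 CPM in NSN GV oocytes. It was down to 27.2, 26.3, 25.9 and 20.4 CPM in SN-MII and 48.2, 37.1 and 25.3 CPM in NSN-MII oocytes. The GV oocyte with the least Bub1 still held more than any MII oocyte. Bub1 fell by 2.29 on the log2 scale (SE 0.19, adjusted p = 1.69e-08, edgeR), or 4.89-fold.

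BUBR1 and BUB1 arose from a common ancestral protein and both bind BUB3, yet their mRNAs moved in opposite directions. Bub1b measured 1541, 1879 and 1139 CPM in SN GV and 1319, 1144 and 1969 CPM in NSN GV oocytes. In SN-MII oocytes it measured 2339.8, 3184, 3356 and 3116 CPM, and in NSN-MII oocytes 2599, 2684 and 2768 CPM. All MII values lay above all GV values. The log2 fold change was 0.92 (SE 0.16, adjusted p = 7.59e-05, edgeR). Per length, the FPKM ratio of Bub1b to Bub1 was 5.97 to 10.1 in GV oocytes and 50.4 to 144 in MII oocytes, with no overlap.

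Mad2l1, which encodes the protein that MAD1 converts into its CDC20-binding form, measured 335, 320.4 and 314 CPM in SN GV and 221, 363 and 301 CPM in NSN GV oocytes. It measured 637, 609, 628 and 909.9 CPM in SN-MII and 552, 585 and 991 CPM in NSN-MII oocytes. No MII oocyte reached down to the GV range, and the highest value of each MII group came from SN-MII 4 and NSN-MII 3, the libraries with the fewest genes detected. The log2 fold change was 1.19 (SE 0.17, adjusted p = 1.41e-05, edgeR), and 1.01 without NSN-MII 3. Mad1l1, which encodes the partner that places MAD2 at the kinetochore, went the other way. It measured 116, 131 and 112 CPM in SN GV and 112, 118 and 143 CPM in NSN GV oocytes, against 45.0, 38.8, 37.7 and 37.9 CPM in SN-MII and 33.5, 41.3 and 29.2 CPM in NSN-MII oocytes. The groups did not overlap, and Mad1l1 fell by 1.71 on the log2 scale (SE 0.14, adjusted p = 2.45e-08, edgeR). The FPKM ratio of Mad2l1 to Mad1l1 was 2.77 to 4.76 at GV and 17.9 to 47.2 at MII, the highest in NSN-MII 3, without which it reached 28.2.

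The RZZ subunits did not move as 1 group. Zw10 measured 139, 139 and 158 CPM in SN GV and 163, 177 and 184 CPM in NSN GV oocytes, and 45.0, 44.3, 45.4 and 17.2 CPM in SN-MII and 59.3, 48.0 and 43.2 CPM in NSN-MII oocytes. All MII oocytes were lower, and SN-MII 4 was far below the other SN-MII oocytes. Zw10 fell by 1.87 on the log2 scale (SE 0.20, adjusted p = 4.45e-07, edgeR), and its log2 fold change without SN-MII 4 was -1.75. Zwilch measured 92.6, 96.2 and 76.6 CPM in SN GV, 67.8, 76.9 and 99.8 CPM in NSN GV, 12.6, 10.3, 12.5 and 12.7 CPM in SN-MII and 18.9, 16.0 and 10.1 CPM in NSN-MII oocytes. Its stages were far apart, and its fall of 2.66 on the log2 scale (SE 0.18, adjusted p = 2.26e-09, edgeR) was the greatest of the 9 genes. Kntc1 measured 58.7, 73.5 and 43.5 CPM in SN GV, 79.1, 15.9 and 71.2 CPM in NSN GV, 67.4, 65.9, 61.5 and 62.0 CPM in SN-MII and 86.8, 72.5 and 54.2 CPM in NSN-MII oocytes. The stages overlapped, and NSN GV 2 lay far below all other oocytes. Its log2 fold change was 0.25 (SE 0.28, adjusted p = 0.438, edgeR), so that both a rise and a fall lie within 2 SE of it. It was 0.03 without NSN GV 2 and 0.42 without NSN GV 1.

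Bub3, which encodes the WD-repeat adaptor for BUB1 and BUBR1, measured 278, 268 and 234 CPM in SN GV and 174, 266 and 248 CPM in NSN GV oocytes. After maturation it measured 146, 176, 148 and 286 CPM in SN-MII oocytes and 57.6, 65.7 and 79.5 CPM in NSN-MII oocytes. In CPM SN-MII 4 lay above every GV oocyte, and without it all other MII values but 176 CPM lay below the GV range. This place of SN-MII 4 depended on the measure. Its Bub3 was 109.3 FPKM, below all SN GV oocytes (111.8 to 121.9 FPKM) and within the range of NSN GV oocytes (91.2 to 115.9 FPKM). Over both types Bub3 fell by 1.11 on the log2 scale (SE 0.18, adjusted p = 3.52e-05, edgeR).

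MII and GV oocytes were also compared within each type. These comparisons come from the same libraries as the one above and as the comparisons of NSN with SN below. In SN oocytes 7 of the 9 genes were called, against 56.3% of all genes, and in NSN oocytes 8 were called, against 56.3%. In SN oocytes the log2 fold change ran from -2.88 (SE 0.25) for Zwilch to 1.11 (SE 0.24) for Mad2l1, and in NSN oocytes from -2.43 (SE 0.27) for Zwilch to 1.27 (SE 0.25) for Mad2l1. Bub3 was the gene called in NSN and not in SN oocytes by edgeR, a split that rests on the method and on 1 oocyte. It fell by 1.76 on the log2 scale in NSN oocytes (SE 0.27, adjusted p = 4.3e-05, edgeR), and its log2 fold change in SN oocytes was -0.46 (SE 0.24, adjusted p = 0.114, edgeR). Without SN-MII 4 the value in SN oocytes was -0.73 and passed the test (adjusted p = 0.00941, edgeR), and limma on FPKM called it in SN oocytes with all libraries (adjusted p from 0.0108 to 0.0198).

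**Figure D2:**
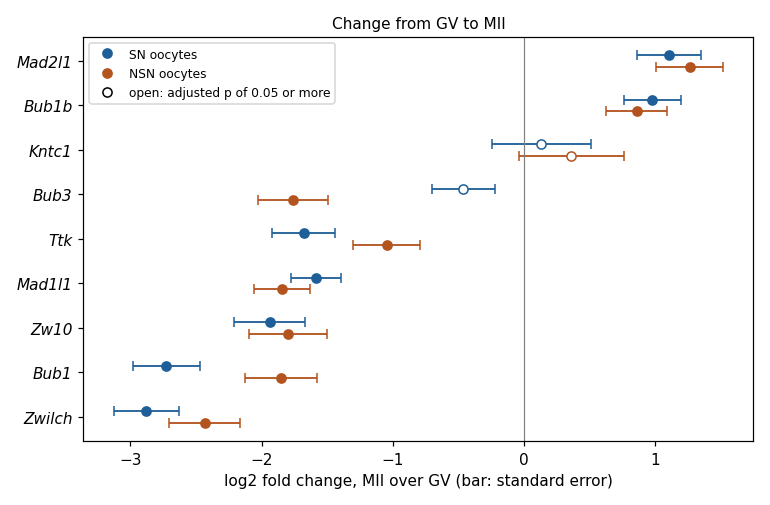
log2 fold change from GV to MII (x axis, bars are SE) of each checkpoint gene in SN and in NSN oocytes, from edgeR's quasi-likelihood fit, with open points where the adjusted p was 0.05 or more. Mad2l1 and Bub1b lie right of 0 in both types, and Bub3 lies at -0.46 in SN and -1.76 in NSN oocytes.

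Whether the change from GV to MII differed between the types was tested as the interaction of type and stage in 1 fit of all libraries. None of the 9 genes was called, with 2 at an unadjusted p under 0.05 and 0 called by DESeq2, and the test called 0.0176% of all genes. The 2 were Bub3, with a difference of -1.30 on the log2 scale (SE 0.36, adjusted p = 0.398, edgeR), and Bub1, with a difference of 0.87 (SE 0.36, adjusted p = 0.846, edgeR). With each oocyte left out, the Bub3 difference ran from -1.46 without NSN GV 1 to -1.03 without SN-MII 4, and was never called. The drop of Bub3 is thus not shown to differ between NSN and SN oocytes.

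NSN and SN oocytes were then compared within each stage, the comparison the study was built on. At GV, 0 of the 9 genes were called, 0 had an unadjusted p under 0.05 and DESeq2 called 0, and the test called 0% of the 10839 genes tested. The log2 fold change of NSN over SN lay between -0.29 (SE 0.24) for Bub1 and 0.28 (SE 0.16) for Zw10. For Bub1 it was -0.07 without NSN GV 2 and -0.50 without NSN GV 3. In Zw10 all 3 NSN GV oocytes lay above all 3 SN GV oocytes, as given above, in CPM and in FPKM. It was 1 of 9 genes without overlap, against 6.03% of all genes. Spread between oocytes was widest for Kntc1, with an SE of 0.51 on the log2 scale, since NSN GV 2 held 15.9 CPM against 79.1 and 71.2 CPM in the others. The same oocyte had the lowest Bub1 of the GV oocytes (93.0 CPM).

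At MII the test called 1 of the 9 genes, Bub3, against 0.259% of the 10028 genes tested, and 1 gene, again Bub3, did not overlap, against 10.2% of all genes. The mean of Bub3 was 67.6 ± 11.1 CPM (SD, n = 3) for the NSN-MII group and 189 ± 66.0 CPM (SD, n = 4) for the SN-MII group. It was 2.80-fold lower in NSN-MII oocytes, with a log2 fold change of -1.49 (SE 0.25, adjusted p = 0.0406, edgeR). DESeq2 also called it (adjusted p = 1.53e-05), and limma on FPKM did not (adjusted p from 0.0803 to 0.172). Bub3 stayed lower whichever oocyte was left out, with the log2 fold change between -1.60 and -1.22, but the edgeR call was lost in 5 of the 7 cases: without SN-MII 2 (adjusted p = 0.112), SN-MII 3 (0.0967), SN-MII 4 (0.0621), NSN-MII 1 (0.149) or NSN-MII 2 (0.172). It held without SN-MII 1 (adjusted p = 0.0371, edgeR) and without NSN-MII 3 (0.0137).

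Ttk showed the next lowest p at MII. Its mean was 183 ± 49.1 CPM (SD, n = 3) for the NSN-MII group and 119.5 ± 16.6 CPM (SD, n = 4) for the SN-MII group. The ranges met in CPM, where the lowest NSN-MII oocyte lay under the highest SN-MII oocyte, and were just apart in FPKM (46.3 against 46.1). The log2 fold change was 0.61 (SE 0.20, unadjusted p = 0.00945, adjusted p = 0.289, edgeR), which does not pass. With each oocyte left out, the Ttk value ran from 0.41 without NSN-MII 3 to 0.77 without NSN-MII 2. Bub1 had 0.57 (SE 0.27, adjusted p = 0.538, edgeR). Its value ran from 0.32 without NSN-MII 1 to 0.78 without NSN-MII 3, and the lowest adjusted p with 1 oocyte left out was 0.0999 (edgeR). For the remaining 6 genes the log2 fold change ran from -0.20 (SE 0.22) for Mad1l1 to 0.40 (SE 0.32) for Zw10, none of them called. The value of Zw10 ran from 0.16 without SN-MII 4 to 0.51 without NSN-MII 3, and that of Mad1l1 from -0.36 without NSN-MII 2 to -0.08 without NSN-MII 3. Zwilch had 0.33 (SE 0.31), which ran from 0.12 without NSN-MII 1 to 0.55 without NSN-MII 3. The log2 fold change was 0.02 (SE 0.22) for Mad2l1 and -0.16 (SE 0.15) for Bub1b. The median of the 9 genes was 0.15 and that of all genes tested 0.02.

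**Figure D3:**
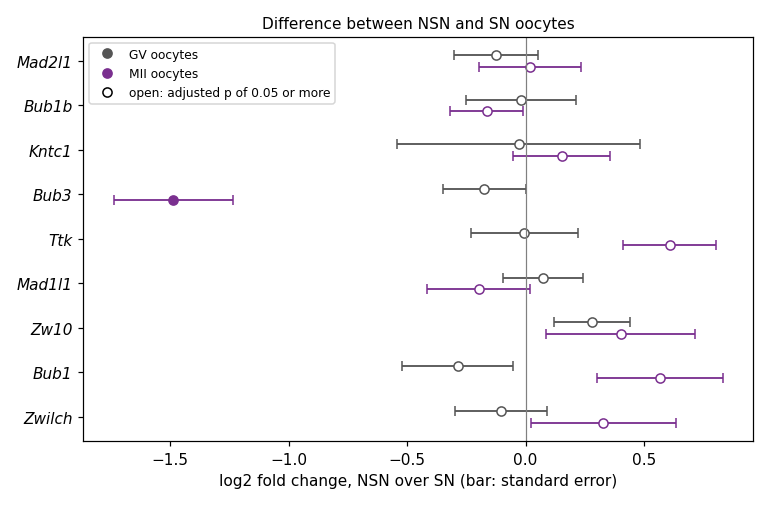
log2 fold change of NSN over SN oocytes (x axis, bars are SE) for each checkpoint gene at GV and at MII, with open points where the adjusted p was 0.05 or more. Bub3 at MII, at -1.49, is the 1 filled point, and the GV values lie between -0.29 and 0.28.

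The 9 mRNAs were also ordered by FPKM, per length. Bub1b was first in every group, with 395 ± 84.2 FPKM (SD, n = 3) in SN GV, 396 ± 108 (n = 3) in NSN GV, 709.7 ± 109 (n = 4) in SN-MII and 656 ± 59.1 (n = 3) in NSN-MII oocytes. Mad2l1 was the second in every group, with 188 ± 6.10, 176 ± 31.1, 360.0 ± 54.3 and 371 ± 77.9 FPKM in the same order. The ranges of Bub1b and Mad2l1 did not overlap in any group. At GV, Ttk (130.3 ± 18.2 FPKM in SN and 131 ± 34.9 FPKM in NSN oocytes) and Bub3 (118 ± 5.20 and 106 ± 12.9 FPKM) came next and overlapped each other, and in NSN GV oocytes the range of Ttk also met that of Mad2l1. The lower GV places went to Bub1, Zw10 and Mad1l1, which overlapped in SN oocytes (in NSN oocytes Zw10 stood apart above them and Bub1 met Zwilch), then Zwilch and, lowest without overlap, Kntc1 (15.5 ± 2.96 and 14.8 ± 7.77 FPKM).

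At MII the third and the fourth places differed by type. In SN-MII oocytes Bub3 (76.6 ± 22.8 FPKM) stood above Ttk (37.1 ± 6.63 FPKM), and in NSN-MII oocytes Ttk (58.7 ± 10.8 FPKM) stood above Bub3 (28.4 ± 1.58 FPKM), in both cases without overlap. Below them Mad1l1, Kntc1, Zw10, Bub1 and Zwilch overlapped from neighbour to neighbour in both types. In SN-MII oocytes this rested in part on SN-MII 4, where Zw10 was at 5.00 FPKM: in the other 3, Zw10 (14.0 to 14.1 FPKM) lay apart from Bub1 (6.91 to 7.19 FPKM) and just under Kntc1 (14.2 to 17.5 FPKM). Bub1 and Zwilch were last, with 6.53 ± 1.13 and 5.46 ± 1.32 FPKM in SN-MII and 9.90 ± 3.96 and 9.48 ± 4.02 FPKM in NSN-MII oocytes. Kntc1, lowest at GV, was no longer lowest by its mean at MII, with an FPKM of 14.6 ± 2.37 and 16.7 ± 6.87.

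Bub1b and Mad2l1 together made up 54.6% to 58.1% of the summed FPKM of the 9 genes in GV oocytes and 84.9% to 88.4% in MII oocytes. The sum itself overlapped between stages, at 889.9 to 1176 FPKM at GV and 1055 to 1319 FPKM at MII. Within the subunits of the mitotic checkpoint complex, the FPKM ratio of Bub3 to Mad2l1 was 0.556 to 0.659 in GV, 0.182 to 0.248 in SN-MII and 0.0637 to 0.0887 in NSN-MII oocytes. These 3 ranges did not touch. Since Mad2l1 differed little between NSN-MII and SN-MII oocytes, this ratio carries the Bub3 difference given above and is no separate result.

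**Figure D4:**
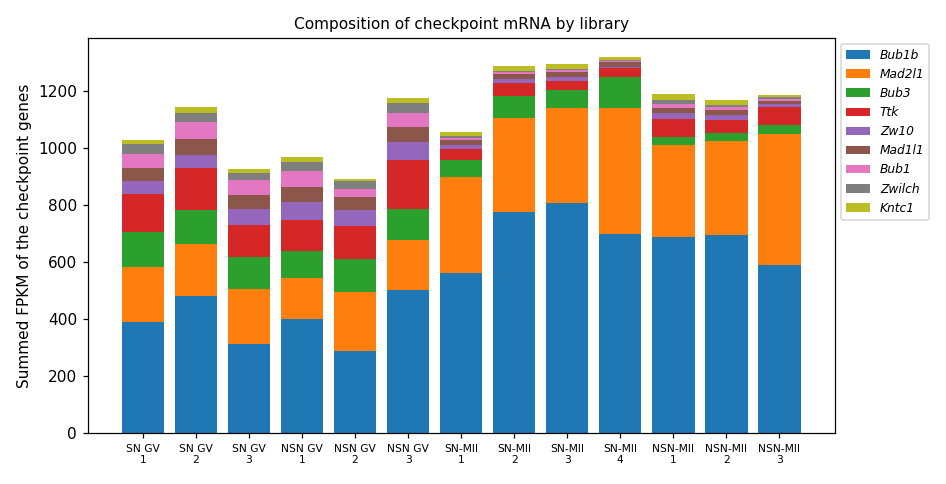
Summed FPKM of the 9 checkpoint genes in each oocyte (1 bar each, linear axis from 0), divided by gene. Bub1b and Mad2l1 fill 54.6% to 58.1% of the GV bars and 84.9% to 88.4% of the MII bars, and the Bub3 part is thinnest in the 3 NSN-MII oocytes.

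Genes that work beside these 9 were counted in 3 lists, against the 31.7% of all genes called higher at MII than at GV and the 36.9% called lower. Of 15 checkpoint partners, 8 were called higher, 2 lower and 5 were not called, with a median log2 fold change of 1.01. The largest changes without overlap were Cenpe, the kinetochore motor that activates BUBR1 (1.55, SE 0.20, from 236 ± 80.1 CPM in 6 GV to 685 ± 106 CPM in 7 MII oocytes), Sgo2a, a protector of centromeric cohesion (1.39, SE 0.18), and Knl1, the scaffold that TTK phosphorylates (1.39, SE 0.15). Cdc20, which encodes a member of the mitotic checkpoint complex, had 1.27 (SE 0.15). Haspin, a histone H3 kinase, and Aurkb, an Aurora kinase, were the 2 called lower, with -1.13 (SE 0.19) and -1.24 (SE 0.23). Aurkc, another Aurora kinase of the list, was among the 8 called higher (1.14, SE 0.14), without overlap. It went from 264 ± 41.0 CPM at GV to 584 ± 68.6 CPM at MII, and Aurkb from 27.4 ± 4.72 to 17.1 ± 13.3 CPM. The stages overlapped for Aurkb, whose log2 fold change was -0.17 (SE 0.30, adjusted p = 0.643, edgeR) in SN and -2.32 (SE 0.35, adjusted p = 3.58e-05, edgeR) in NSN oocytes. The interaction of type and stage for Aurkb depended on the method. It did not pass in edgeR (adjusted p = 0.196) or in limma on FPKM (adjusted p from 0.295 to 0.32), and passed in DESeq2 (-2.13, adjusted p = 0.00473).

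Of 12 outer kinetochore genes, 4 were called higher, 6 lower and 2 were not called, with a median log2 fold change of -0.54, and the share called higher was near that of all genes (31.7%). Zwint, which links the RZZ complex to KNL1, fell from 117.8 ± 15.9 to 11.5 ± 2.58 CPM, a log2 fold change of -3.35 (SE 0.19). Ska3 fell from 150.2 ± 12.2 to 20.1 ± 7.54 CPM and Ska1 had a log2 fold change of -2.18 (SE 0.17), both subunits of the SKA complex that tracks microtubules. ZW10 also belongs to a complex that tethers Golgi vesicles to the endoplasmic reticulum. Of the 6 genes of that role 1 was called higher, 4 lower and 1 was not called, against 31.7% and 36.9% of all genes called higher and lower. Use1, Bnip1 and Stx18, which encode SNAREs of this pathway, had log2 fold changes of -5.01 (SE 0.39), -4.49 (SE 0.24) and -3.75 (SE 0.25). Sec22b, another SNARE gene of the list, was the gene not called (-0.05, SE 0.15). Nbas was the gene called higher (0.98, SE 0.32), and Rint1 was called lower by less (-0.73, SE 0.27), both with overlap between stages. All calls in the lists had an adjusted p under 0.05 in edgeR's test over all 11375 genes.

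**Figure D5:**
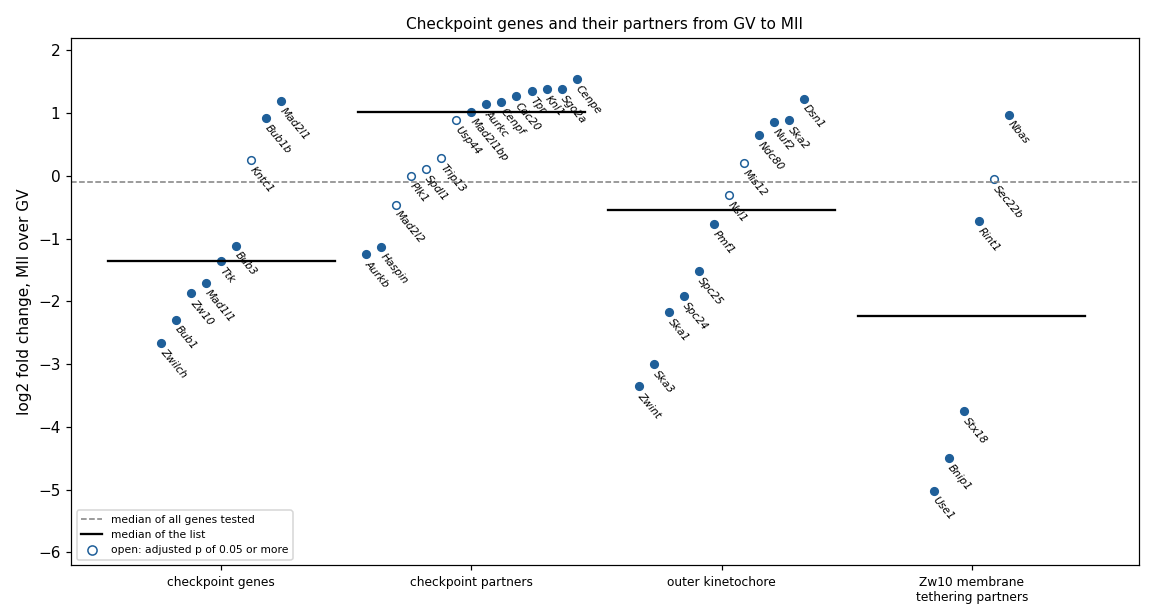
log2 fold change from GV to MII (y axis) of the checkpoint genes and 3 lists of partners, 1 point a gene, open where the adjusted p was 0.05 or more, with the median of each list as a black line and that of all genes tested (-0.10) as a dashed line. The checkpoint partners have a median of 1.01, the 9 checkpoint genes one of -1.36, and Use1, Bnip1 and Stx18 lie lowest.

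Between NSN-MII and SN-MII oocytes 1 of the 32 genes tested from these 3 lists was called by edgeR, against 0.259% of all genes. Aurkb measured 4.64, 6.19 and 4.39 CPM in NSN-MII and 23.0, 22.0, 18.5 and 41.0 CPM in SN-MII oocytes. Its groups did not overlap, SN-MII 4 was the highest as it was for Bub3, and the log2 fold change was -2.35 (SE 0.36, adjusted p = 0.0273, edgeR). Without SN-MII 4 it was -2.06 (adjusted p = 0.0647, edgeR). The call was also lost without SN-MII 2 (0.0959), SN-MII 3 (0.0679), NSN-MII 1 (0.136) or NSN-MII 2 (0.134). It was lost as well with a block for the replicate number (adjusted p = 0.2, edgeR) and in limma on FPKM (0.0803 to 0.172). The value was below 0 in each case. DESeq2 called Aurkb (adjusted p = 2e-07).

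A CPE in the last 100 bases was held by 29.2% of the genes called higher at MII, 11.2% of those called lower, 20.1% of those not called and 19.9% of the 10828 tested genes with such an end in the annotation. Of the 9 checkpoint genes it was held by 1 (11.1%), Bub1b, which rose. Mad2l1, which also rose, held none there, nor did Kntc1 or any of the 6 that fell. With any annotated coding transcript of a gene allowed, a choice made after the data were seen, the shares were 39.3% for higher, 15.4% for lower and 27.2% for all genes, and 3 of the 9 checkpoint genes held a CPE: Bub1b, Mad2l1 and Kntc1. Mad2l1 rose and Kntc1 was the gene that was not called. The Kntc1 match lay in an annotated transcript of 483 bases with no hexamer in its last 100 bases. The Kntc1 transcript of 6961 bases, whose end is shown above, held a hexamer there and no CPE. A match is a run of letters, and whether it is used in these oocytes was not measured.

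Over the 13 libraries, the pair of genes whose log2(FPKM + 1) followed each checkpoint gene most closely, among the 11524 whose mean FPKM reached 1, was picked by Pearson's r. For Mad2l1 these were Cenpn (r = 0.997) and Hnrnpc (0.995), for Bub1 Nek2 (0.990) and Lrrfip2 (0.989), and for Zw10 Os9 (0.993) and Trim24 (0.990). For Zwilch they were Fra10ac1 (0.992) and Gnl2 (0.989), for Mad1l1 Eif3l (0.989) and Fh1 (0.989), for Bub3 Ciart (0.979) and Ube2t (0.977), and for Ttk Gm31834 (0.976) and Sart3 (0.973). Bub1b was followed by Foxo3 (0.971) and Atxn2l (0.968), and Kntc1 by Gm48275 (0.948) and Gm43305 (0.946). The points of each correlation share the split between GV and MII libraries, which most of these genes show, so the values describe these libraries only.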

How the data were processed

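RNA-seq libraries of 13 single oocytes in 4 groups, taken from the sample labels, were analysed, each as 1 replicate. According to the submitters' processing notes the authors trimmed reads with Trim Galore 0.4.4, used Bowtie2 2.3.5 and the genome build mm10, and estimated values with RSEM 1.2.28. The expected counts were deposited by the authors as 1 table per stage and the FPKM values as 1 table of all libraries. No mapped column was left out, and no comparison of the authors was used. Expected counts were rounded, filtered with filterByExpr, scaled by TMM and tested by edgeR 4.0.16 (R 4.3.3) with the quasi-likelihood test and Benjamini-Hochberg adjustment over all genes tested. NSN and SN were compared within each stage. MII and GV, and the interaction of type and stage, were compared in 1 model of all libraries. Calls were made at an adjusted p under 0.05.

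The 9 genes and the gene lists were chosen with earlier results of these data known. Beside the 9, the text names up to 3 genes per list with the largest called change from GV to MII and no overlap, partners called between NSN and SN, and the 2 genes most alike each of the 9. Cdc20, Aurkc, the 2 partners called lower (Haspin and Aurkb), Sec22b, Nbas, Rint1 and the single cumulus and granulosa cell markers were named after their values were seen. Total counts were 7140416 to 8846287 per library. The common biological coefficient of variation was 0.352 at GV and 0.344 at MII, and no molecular identifiers are stated, so intervals from counting alone would be too narrow. No 2 libraries were identical. Alternatives were DESeq2 1.42.0 and its size factors, limma 3.58.1 on log2(FPKM + 1) or log2(FPKM + 0.1), no filter, a fold minimum of 1.5, 1 fit of all libraries, a block for the replicate number, and leaving out each library. Annotation was GENCODE M21 (GRCm38), which held 18887 of 18939 symbols (99.7%). The scripts were tested on simulated counts. Raw reads and imaging were not analysed here.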

Additional observations from a re-analysis of the deposited data

Results flagged for a closer look

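Only the SN-MII group, with 4 oocytes, was large enough to be searched for an oocyte far from the others, and chance marks about 1 in 20 such groups. In 4 of the 9 genes 1 oocyte stood apart. Mad2l1 was at 909.9 CPM in SN-MII 4, against 609 to 637 CPM in the other 3. Zw10 was at 17.2 CPM in the same oocyte, against 44.3 to 45.4 CPM. Mad1l1 was at 45.0 CPM in SN-MII 1, against 37.7 to 38.8 CPM, and Zwilch was at 10.3 CPM in SN-MII 2, against 12.5 to 12.7 CPM. SN-MII 4 was also the SN-MII library with the fewest genes detected and the largest share of counts in its 10 most abundant genes (11.0%), and their part in these values was not tested.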

How the results depend on the processing

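The comparison of MII with GV over both types kept the direction and the call of all 9 genes under every alternative run. DESeq2's size factors moved the median log2 fold change of all genes by -0.04, dropping the filter on low counts by -0.16 and limma on log2(FPKM + 0.1) by -0.21. For Bub3 the call at MII rests on few oocytes: genes called among the 9 went from 1 to 0 with the replicate block (log2 fold change -1.22, adjusted p = 0.2) and in the 3 limma fits, and were 0 to 1 with each oocyte left out. The number of all genes called at MII, 26, became 218 with DESeq2, 89 without the filter, 69 with all libraries in 1 fit, 2 with the replicate block, 4, 4 and 2 in the limma fits and 2 to 233 with each oocyte left out (2 without NSN-MII 1, 233 without NSN-MII 3). At GV limma on log2(FPKM + 1) and on log2(FPKM + 0.1) called 1 gene, none of the 9, against 0. The interaction called 2 genes, and 46 with DESeq2, 6 without the filter, 1, 1 and 4 in the limma fits and 0 to 12 with each oocyte left out. In SN oocytes Bub3 was called from GV to MII with the replicate block (-0.74, adjusted p = 0.0131), in limma (adjusted p from 0.0108 to 0.0198) and without SN-MII 4.

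The labels do not say whether the same replicate number pairs oocytes. Deviations of same-numbered libraries from their group means correlated between -0.458 and 0.202. Differently numbered libraries were not correlated for comparison, so these values cannot decide whether the oocytes are paired. None of the values that changed sign was called. With the replicate block the interaction of Zw10 was -0.11. In limma Zwilch at GV was 0.0075, 0.0078 and 0.0075, and Kntc1 from GV to MII in SN oocytes was -0.079, -0.083 and -0.079. With each oocyte left out, NSN against SN at GV ran from -0.26 to 0.14 for Ttk, -0.25 to 0.15 for Bub1b, -0.45 to 0.41 for Kntc1, -0.27 to 0.0054 for Mad2l1 and -0.011 to 0.13 for Mad1l1, and at MII from -0.28 to 0.17 for Mad2l1 and -0.022 to 0.32 for Kntc1. From GV to MII Kntc1 ran from -0.047 to 0.33 in SN and -0.078 to 0.71 in NSN oocytes. The interaction ran from -0.30 to 0.15 for Bub1b, -0.16 to 0.33 for Mad2l1, -0.21 to 0.58 for Kntc1 and -0.10 to 0.24 for Zw10. The causes were not tested. The lowest count of any of the 9 genes in a library was 60, for Zwilch, and each group had 3 or 4 oocytes.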
